A study of Mus musculus with 12 samples.

Results

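DNA repair and damage checkpoint genes were examined in HDAC3-deficient and control LMPPs, CD115-CDPs and bone marrow (BM) pDCs by RNA-seq. The 35 genes were taken by symbol from a list drawn up with earlier results of these data known, and all 35 were found in the deposited tables, which hold 17445 rows for LMPPs, 16821 for CD115-CDPs and 16896 for BM pDCs. They comprise 17 genes of homologous recombination, 8 Fanconi genes, 4 damage checkpoint kinases, 5 genes of end joining and the mismatch repair gene *Msh6*. Control mice were Hdac3 fl/fl and HDAC3-deficient mice were Hdac3 fl/fl CreERT2, both on the C57BL/6 strain, and the ages of the mice are not given in the labels. Tamoxifen was given by intraperitoneal injection for 5 days to both genotypes, and cells were sorted 7 days later, so the controls also saw the drug but carried no Cre. CreERT2 was expressed from the *Rosa26* locus, which is not restricted to dendritic cells, so deletion was not limited to one lineage. LMPPs were sorted as an Flt3+ CD34+ subset of LSK progenitors, CD115-CDPs as CD117int Flt3+ CD127- CD11c- CD115- progenitors, and BM pDCs by CD11cint PDCA-1+ B220+ Siglec H+ staining. Each of the 3 cell types has 2 libraries per genotype, 12 in all.

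Cells that copy their DNA meet breaks and stalled forks, and they repair them by several routes. Homologous recombination copies the undamaged sister strand and works mainly while DNA is being or has been replicated, whereas end joining seals broken ends directly in any phase and also joins antigen receptor segments in developing lymphocytes. The Fanconi proteins unhook crosslinks between strands and hand the break to recombination, and the checkpoint kinases sense the damage and hold the cycle while it is mended.

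The targeted gene *Hdac3* was lower in the HDAC3-deficient libraries of each cell type. In LMPPs its FPKM was 56.48 and 66.35 in the controls and 16.87 and 9.87 in the HDAC3-deficient libraries. In CD115-CDPs the values were 58.19 and 39.56 against 12.06 and 0.93, and in BM pDCs 38.91 and 37.8 against 15.6 and 15.85. The change passed the test in LMPPs (limma, adjusted p = 2.19e-05) and in BM pDCs (edgeR, adjusted p = 0.000107), but not in CD115-CDPs (limma, adjusted p = 0.458). FPKM, the number of fragments per kilobase of transcript scaled to all mapped fragments, corrects for gene length and library size. A call is an adjusted p under 0.05 after Benjamini-Hochberg correction over all genes tested in that cell type. HDAC3-deficient CD115-CDP library 2 stood apart: 11288 of its rows were above 0, against 13684 to 15173 in the other libraries of that cell type. Summed FPKM of 6 erythroid genes was 6860 in control LMPP library 1 and 87.5 to 227 in the other LMPP libraries. The expected counts of the BM pDC libraries summed to 18117748 to 18462220, and the depth of the other libraries is unknown. Nothing in the labels says that the 2 libraries of a group came from separate mice, so the p values measure only the spread between libraries, which may be technical.

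In HDAC3-deficient BM pDCs most of the repair and checkpoint genes were higher than in controls. Of the 35 genes, 25 rose, 3 fell and 7 had no call, whereas 21.6% of all 12716 genes tested rose and 22.5% fell. The median log2 change of the 35 genes was 0.93, beside -0.01 over all genes tested. The routes differed in their counts: 15 of 17 genes of homologous recombination and 6 of 8 Fanconi genes rose, whereas 0 of 5 end joining genes rose by edgeR or by DESeq2 (1 at an unadjusted p under 0.05 in edgeR) and 2 fell. In FPKM, both HDAC3-deficient libraries lay above both controls in 25 of the 35 genes and below them in 5, where 27.2% and 48.9% of all genes tested did so. In 14 of the 25 the mean FPKM was at least 2 times that of the controls. In these bulk samples a change in the share of one kind of cell and a change in RNA per cell cannot be told apart.

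**Figure D1:**
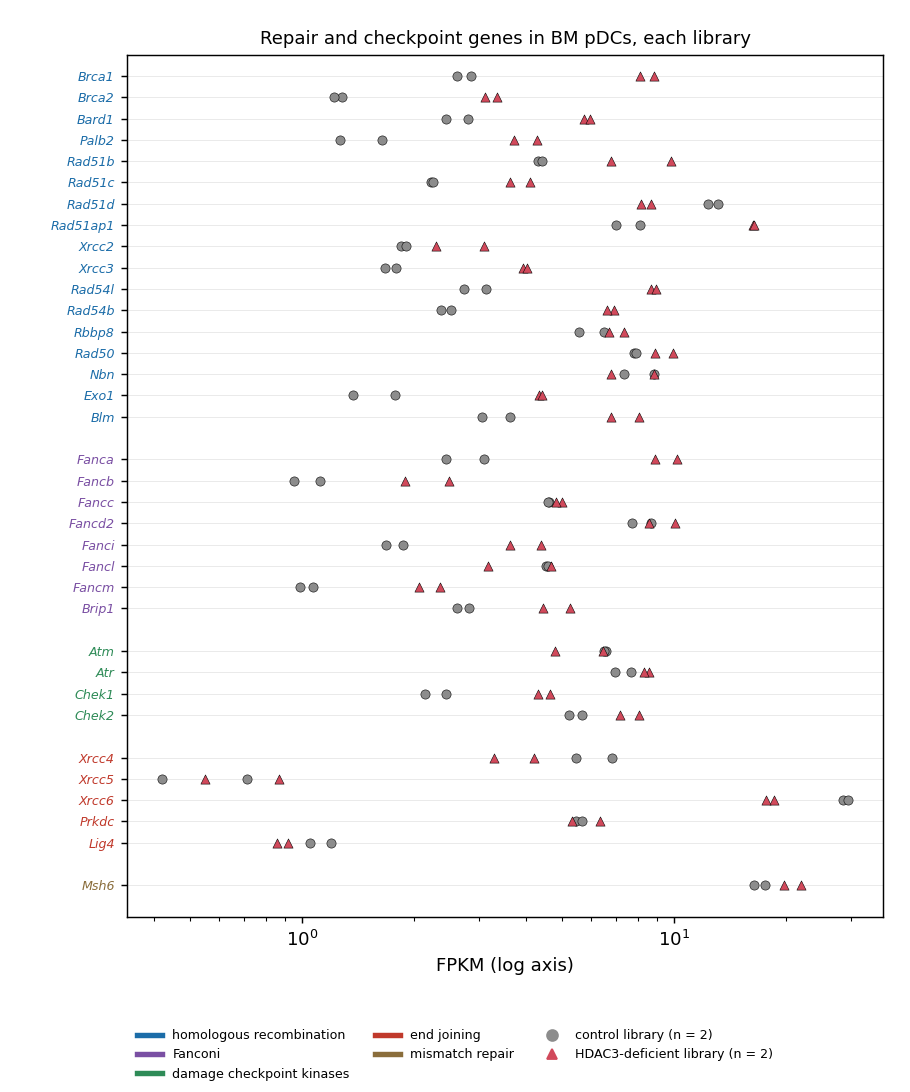
FPKM of the 35 genes in the 2 control (circles) and 2 HDAC3-deficient (triangles) BM pDC libraries, on a log axis, with genes in rows coloured by role. The triangles lie to the right of the circles for most recombination and Fanconi genes, by up to 3.45 times in mean FPKM for *Fanca*, and to the left for *Rad51d*, *Xrcc4* and *Xrcc6*.

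The genes of homologous recombination had a median log2 change of 1.29, and all 4 genes of the BRCA group rose. *Brca1*, which encodes a ubiquitin ligase that starts repair by recombination, had 2.62 and 2.85 FPKM in the control BM pDCs and 8.84 and 8.13 FPKM in the HDAC3-deficient BM pDCs, a log2 change of 1.84 (SE 0.094, edgeR adjusted p = 3.71e-05). *Bard1*, its partner in the ligase, had 2.45 and 2.8 FPKM against 5.74 and 5.96 FPKM (log2 change 1.29). Mean FPKM was 3.1 and 2.23 times that of the controls in these partners, with no overlap between the genotypes. *Palb2*, the bridge between BRCA1 and BRCA2, had 1.64 and 1.27 FPKM against 3.72 and 4.3 FPKM (log2 change 1.67). *Brca2*, which acts on single-stranded DNA at the break, had 1.28 and 1.22 FPKM against 3.35 and 3.11 FPKM (log2 change 1.49). The levels of *Palb2* and *Brca2* were low in absolute terms in both genotypes, and again the HDAC3-deficient libraries lay above both controls.

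The genes of the *Rad51b*, *Rad51c*, *Rad51d*, *Xrcc2* and *Xrcc3* group did not all move in one direction. *Rad51ap1*, an accessory factor of recombination, had 7.0 and 8.11 FPKM in the controls and 16.36 and 16.5 FPKM in the HDAC3-deficient BM pDCs (log2 change 1.26). *Xrcc3* had 1.67 and 1.79 FPKM against 3.94 and 4.04 FPKM (log2 change 1.35), and its product pairs with that of *Rad51c*. *Rad51c* itself had 2.22 and 2.25 FPKM against 3.63 and 4.11 FPKM (log2 change 0.93). In these 3 genes both HDAC3-deficient values exceeded both control values. *Rad51b* had 4.32 and 4.44 FPKM against 6.8 and 9.82 FPKM (log2 change 1.10), so that the 2 HDAC3-deficient libraries differed from each other more than the controls did. *Xrcc2* had 1.85 and 1.91 FPKM against 3.09 and 2.29 FPKM (log2 change 0.65, edgeR adjusted p = 0.0212). *Rad51d*, whose product binds that of *Xrcc2*, had 13.15 and 12.39 FPKM against 8.7 and 8.16 FPKM. It fell by 0.43 on the log2 scale (SE 0.087, edgeR adjusted p = 0.00685). It was the only member of homologous recombination that fell, and it had the highest control level of the 17.

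The motor and end-processing proteins of recombination followed. *Rad54l*, an ATP-driven motor that moves along DNA during strand exchange, had 3.13 and 2.73 FPKM in controls and 8.7 and 8.95 FPKM in HDAC3-deficient BM pDCs (log2 change 1.64). Its relative *Rad54b* had 2.37 and 2.52 FPKM against 6.92 and 6.63 FPKM (log2 change 1.59). *Blm*, the helicase that dissolves crossed strands, had 3.05 and 3.62 FPKM against 8.05 and 6.79 FPKM (log2 change 1.29). All of these more than doubled in mean FPKM, with the genotypes well apart. *Exo1*, a nuclease that lengthens the single strand at a break, had 1.78 and 1.37 FPKM against 4.35 and 4.42 FPKM (log2 change 1.57). The genes that act first at the break moved little by comparison. *Rbbp8*, which encodes the resection factor CtIP, had 6.48 and 5.58 FPKM against 7.35 and 6.72 FPKM (log2 change 0.34, edgeR adjusted p = 0.0403). *Rad50*, of the MRN complex that holds broken ends, had 7.81 and 7.9 FPKM against 9.96 and 8.89 FPKM (log2 change 0.40, edgeR adjusted p = 0.00969). *Nbn*, of the same complex, had 7.35 and 8.87 FPKM against 8.85 and 6.79 FPKM, and the libraries of the genotypes overlapped (log2 change 0.06 and no call).

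The 8 Fanconi genes had a median log2 change of 1.10, with 6 rises and 0 falls. *Fanca*, a subunit of the core ligase complex, had 3.1 and 2.45 FPKM in controls and 8.93 and 10.24 FPKM in HDAC3-deficient BM pDCs, and its log2 change of 1.93 (SE 0.157, edgeR adjusted p = 0.000142) was the highest of the 35 genes. *Fancb*, of the same complex, had 0.95 and 1.12 FPKM against 1.89 and 2.49 FPKM (log2 change 1.25). *Fancm*, the translocase that recruits the complex to DNA, had 1.07 and 0.99 FPKM against 2.36 and 2.07 FPKM (log2 change 1.24). The genotypes did not overlap for any of these 3 genes. *Fanci*, one of the pair that the core ligase ubiquitinates, had 1.68 and 1.87 FPKM against 4.4 and 3.64 FPKM (log2 change 1.31). *Fancd2*, the other member of that pair, had 8.67 and 7.75 FPKM against 10.07 and 8.6 FPKM (log2 change 0.32, edgeR adjusted p = 0.0397), and its FPKM ranges overlapped although the count test gave a call. *Brip1*, a helicase that binds BRCA1, had 2.61 and 2.82 FPKM against 5.28 and 4.46 FPKM (log2 change 0.95). The remaining core complex genes had no call. *Fancc* had 4.62 and 4.59 FPKM against 5.01 and 4.82 FPKM (log2 change 0.25, edgeR adjusted p = 0.123). *Fancl*, the ligase subunit, had 4.54 and 4.58 FPKM against 4.67 and 3.16 FPKM (log2 change -0.08).

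Among the 4 checkpoint kinases, 3 rose and the median log2 change was 0.51. *Chek1*, the effector kinase of the replication checkpoint, had 2.14 and 2.45 FPKM in controls and 4.66 and 4.31 FPKM in HDAC3-deficient BM pDCs (log2 change 1.10, SE 0.128). *Chek2*, the effector kinase of the break response, had 5.22 and 5.67 FPKM against 8.06 and 7.16 FPKM (log2 change 0.65, SE 0.117). *Atr*, the sensor kinase upstream of *Chek1*, had 6.95 and 7.7 FPKM against 8.6 and 8.31 FPKM (log2 change 0.37, SE 0.089, edgeR adjusted p = 0.0138). The effector kinases thus had the larger changes and the lower control levels. *Atm*, the sensor kinase for breaks, had 6.57 and 6.49 FPKM against 6.47 and 4.79 FPKM and no call (log2 change -0.08, edgeR adjusted p = 0.629). *Msh6*, which recognises mispaired bases, had 16.49 and 17.6 FPKM against 22.04 and 19.83 FPKM (log2 change 0.43, edgeR adjusted p = 0.00665).

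The end joining genes did not rise with the others. *Xrcc6*, which encodes Ku70 of the complex that caps broken ends, had 28.47 and 29.52 FPKM in controls and 18.64 and 17.7 FPKM in HDAC3-deficient BM pDCs. It fell by 0.50 on the log2 scale (SE 0.083, edgeR adjusted p = 0.00297). *Xrcc4*, the scaffold of the ligase, had 5.47 and 6.84 FPKM against 4.22 and 3.29 FPKM, and fell by 0.57 (SE 0.181, edgeR adjusted p = 0.0379). The genotypes did not overlap for either gene, and *Xrcc6* had the highest FPKM of the 35 genes in the controls. *Lig4*, the ligase itself, had 1.2 and 1.05 FPKM against 0.86 and 0.92 FPKM (log2 change -0.20, edgeR adjusted p = 0.464). *Prkdc*, the DNA-dependent kinase that Ku recruits, had 5.48 and 5.68 FPKM against 6.35 and 5.32 FPKM, with overlapping genotypes (log2 change 0.27, edgeR adjusted p = 0.0765). *Xrcc5*, which encodes Ku80, the partner of Ku70, was read at only 0.42 and 0.71 FPKM against 0.87 and 0.55 FPKM. That is 20 to 41 expected counts per library, and the log2 change of 0.45 had an SE of 0.385, so a change of that size was not resolved. The change of end joining genes was not tested against that of recombination genes, and the 2 groups are described here by their counts and medians only (-0.20 against 1.29).

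Smaller changes depended on the processing. Of the 25 rises, 18 kept the call when control library 1 was left out, and *Xrcc2*, *Rbbp8*, *Rad50*, *Fancd2*, *Atr*, *Chek2* and *Msh6* lost it. Without control library 1 or control library 2, 1 of the 3 falls, *Xrcc6*, remained called. Scaling by library size alone moved the median of all genes tested to -0.14 and their calls from 2753 rises and 2858 falls to 2080 rises and 3847 falls, and *Xrcc2*, *Rbbp8*, *Rad50*, *Fancd2* and *Atr* lost their call. limma on FPKM gave 1881 rises and 3696 falls over all genes and lost the same 5 members. With DESeq2, *Xrcc2*, *Rbbp8*, *Fancd2* and *Xrcc4* had no call, and without the filter on low counts *Rbbp8*, *Fancd2* and *Xrcc4* had none.

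Some of the genes share sequence with another gene. In the GRCm38 annotation 11 of the 35 genes share exon bases with another protein-coding gene, on the opposite strand *Fanca* with *Zfp276*, *Rad54l* with *Lrrc41*, *Xrcc3* with *Klc1*, *Fanci* with *Polg*, *Xrcc4* with *Tmem167* *Fancc* with *2010111I01Rik*, *Fancd2* with *Fancd2os*, *Fancl* with *Vrk2*, *Msh6* with *Fbxo11* and *Xrcc6* with *Desi1*, and *Rad54b* with *Fsbp* on the same strand. The length of the shared stretches and the part of the reads that fell in them were not measured. The sources used here do not say whether reads were counted by strand. Reads from the shared bases of such pairs therefore cannot be told apart here.

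Markers of proliferation and of cell identity moved in the same libraries. All 21 genes of a cell cycle list rose in HDAC3-deficient BM pDCs, with a median log2 change of 1.39 and a summed level of 551 and 536 FPKM in controls against 1189 and 1178 FPKM. *Top2a* rose from 43.61 and 41.93 FPKM to 157.48 and 143.79 FPKM, *Mki67* from 34.31 and 29.88 FPKM to 112.01 and 110.65 FPKM. Of 8 pDC markers 4 fell and 0 rose, and their summed level was 8591 and 8810 FPKM against 5078 and 4840 FPKM, with none at 0. Of 7 conventional DC markers 3 rose and 1 fell, with sums of 348 to 366 FPKM against 483 to 496 FPKM and none at 0. In that list *Clec9a* had 46.34 and 51.2 FPKM against 207.5 and 196.27 FPKM. *Cd209a*, which the paper also names among genes high in pDCs, was lower, with 80.25 and 78.78 FPKM against 35.36 and 18.63 FPKM. *Flt3* is also on the early progenitor list. Of 5 early progenitor markers 3 rose, with sums of 521 to 554 FPKM against 657 to 730 FPKM. Of 7 granulocyte and monocyte markers 2 rose, with sums of 190 to 201 FPKM against 220 to 281 FPKM, of 6 erythroid markers 1 rose, with sums of 199 to 299 FPKM against 151 to 536 FPKM, of 5 T and NK cell markers 1 rose, with sums of 20.3 to 22.8 FPKM against 24.6 to 28.3 FPKM, and of 6 B cell markers 1 fell, with sums of 41.6 to 44.0 FPKM against 20.7 to 29.6 FPKM. The part of proliferation or of other cells in the rises of the repair genes was not tested.

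A wider list of 78 repair and damage response genes had a median log2 change of 0.21 in BM pDCs. It held 31 rises and 7 falls, and 40 genes were without a call. Over all 12716 genes tested in BM pDCs, 21.6% rose and 22.5% fell, and these shares also stand beside the group counts. By group, 13 of 24 other recombination and Fanconi genes rose and 1 fell, 10 of 18 damage signalling genes rose and 1 fell, 4 of 12 other end joining genes rose and 2 fell, and 4 of 24 genes of mismatch, base and nucleotide excision rose and 3 fell. The genes with the smallest p values in this list all rose. *Clspn*, the mediator between ATR and CHK1, had 5.51 and 5.18 FPKM against 15.63 and 15.45 FPKM (log2 change 1.68, edgeR adjusted p = 3.85e-05). *Lig1*, the ligase of replication, had 12.84 and 12.12 FPKM against 34.19 and 31.93 FPKM (log2 change 1.54). *Neil3*, a glycosylase that opens crosslinks, rose by 1.60 and *Polq*, the polymerase of theta-mediated joining, by 1.86 on the log2 scale.

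The same 35 genes were mostly without a call in LMPPs. Of the 34 genes that passed the filter of at least 1 FPKM in 2 libraries, 1 rose and 2 fell, where 4.31% of 11146 genes tested rose and 18.8% fell. *Lig4*, at 0.63 and 0.59 FPKM in controls and 0.49 and 0.4 FPKM in HDAC3-deficient LMPPs, was below the filter. The median log2 change of all genes tested was -0.24, and that of the 34 genes was -0.01. Homologous recombination genes had a median log2 change of 0.23, Fanconi genes -0.05, checkpoint kinases -0.11 and end joining genes -0.60. With libraries rescaled by their median ratio, the calls over all genes went from 480 rises and 2096 falls to 910 and 1016, the median of all genes to about 0 and that of the 34 genes to 0.22, and *Palb2* and *Rad51b* also rose.

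*Exo1* was the gene that rose in LMPPs. It had 15.53 and 13.17 FPKM in controls and 24.52 and 20.5 FPKM in HDAC3-deficient LMPPs, which is higher by 0.63 on the log2 scale (SE 0.195, limma adjusted p = 0.0312), and the genotypes did not overlap. The call was lost without either control library, without HDAC3-deficient library 1, without the filter and without the trend. The 2 falls were both in end joining. *Xrcc4* had 19.34 and 14.22 FPKM in controls and 8.86 and 6.89 FPKM in HDAC3-deficient LMPPs and fell by 1.04 on the log2 scale (SE 0.228, limma adjusted p = 0.00564). *Xrcc5* had 29.94 and 24.14 FPKM against 15.3 and 12.01 FPKM and fell by 0.96 (SE 0.2, limma adjusted p = 0.00419). For both genes the lowest control lay well above the highest HDAC3-deficient library. Without control library 1, the one with the high erythroid sum, *Xrcc4* lost its call (limma adjusted p = 0.0793) and *Xrcc5* kept it. Without the filter on low values both lost it (limma adjusted p = 0.0698 for *Xrcc4* and 0.0608 for *Xrcc5*). The partner of *Xrcc5*, *Xrcc6*, had 137.2 and 130.04 FPKM against 109.99 and 116.62 FPKM and no call (log2 change -0.24, limma adjusted p = 0.283), close to the all-gene median. *Prkdc* had 3.74 and 2.95 FPKM against 4.07 and 3.0 FPKM.

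Among the members without a call in LMPPs, those with the highest levels of each role are given here. *Rad54l* had 28.66 and 28.42 FPKM against 35.9 and 32.13 FPKM, and *Rad51ap1* 25.06 and 25.01 FPKM against 30.1 and 30.58 FPKM. Their HDAC3-deficient libraries lay above both controls, but neither log2 change, 0.25 and 0.27, was called (limma adjusted p = 0.297 and 0.25). *Nbn* had 26.84 and 21.77 FPKM against 20.54 and 19.85 FPKM. Among the Fanconi genes, *Fancl* had 19.55 and 18.1 FPKM against 12.99 and 13.87 FPKM (log2 change -0.47, limma adjusted p = 0.0841), *Fanci* 13.02 and 13.59 FPKM against 11.57 and 8.99 FPKM, and *Fancd2* 9.9 and 11.2 FPKM against 13.98 and 9.89 FPKM. *Fancl* and *Fanci* lay below both controls in the HDAC3-deficient libraries, whereas *Fancd2* overlapped. *Chek1* had 18.82 and 14.0 FPKM against 20.11 and 16.94 FPKM, and *Chek2* 16.22 and 22.41 FPKM against 18.52 and 16.94 FPKM. *Msh6* overlapped, with 46.48 and 48.1 FPKM against 50.34 and 45.14 FPKM. The other uncalled members ranged in log2 change from -0.42 (*Atr*) to 0.54 (*Bard1*). Of 77 further repair genes tested in LMPPs, 0 rose by limma (4 at an unadjusted p under 0.05), and 4 fell: *Wee1*, which restrains entry into mitosis, by 1.21, *Rmi2* by 0.92, *Mus81* by 0.80 and *Neil3* by 0.59 on the log2 scale. Of the 21 cell cycle genes 8 rose and 1 fell in LMPPs, with sums of 2486 and 2441 FPKM against 3207 and 3001 FPKM, and *Rrm2*, *Ccne1*, *Cdt1* and *Cdk1* had the smallest p values. Of 5 early progenitor markers 1 rose and 1 fell in LMPPs, with sums of 1551 and 1686 FPKM against 1266 and 1233 FPKM and none at 0, and of 7 granulocyte and monocyte markers 2 rose and 2 fell, with sums of 2053 and 2332 FPKM against 3881 and 4330 FPKM. Of the 8 pDC markers 6 were tested in LMPPs, of which 4 fell and 1 rose, with sums of 352 and 360 FPKM against 368 and 361 FPKM. *Ly6d* had 5.9 and 4.11 FPKM against 0.27 and 0.18 FPKM, and *Tcf4* 45.75 and 45.09 FPKM against 27.98 and 26.75 FPKM. Of the tested markers, 1 of 3 for B cells fell (sums of 59.1 and 61.8 FPKM against 48.6 and 52.0 FPKM), 1 of 4 erythroid markers fell, 1 of 2 for T and NK cells rose and 1 fell (sums of 225 and 225 FPKM against 367 and 451 FPKM), and 0 of 2 for conventional DCs were called (sums of 405 and 475 FPKM against 316 and 314 FPKM). Most of the conventional DC sum was *Flt3*, also an early progenitor marker, at 402.36 and 473.03 FPKM against 313.64 and 312.31 FPKM. Most of the T and NK cell sum was *Nkg7*, at 221.39 and 221.87 FPKM against 366.33 and 450.51 FPKM. *Cd3e*, *Cd3d* and *Cd8a* were at 0.26 FPKM or less in every LMPP library. Most of the B cell sum was *Cd79b*, at 52.27 and 57.97 FPKM against 47.16 and 49.86 FPKM. The part of these markers in the changes of the repair genes was not tested.

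In CD115-CDPs no member was called. limma called 0.0% of 10832 genes tested, and 0 of the 34 members that passed the filter. At an unadjusted p under 0.05, 332 of all genes rose and 644 fell, and of the members 0 rose and 1 fell. No other tool was run on this table. Both HDAC3-deficient libraries lay above both controls in 3 members and below them in 8, where 15.2% and 28.4% of all genes tested did so. The member that fell at the unadjusted threshold was *Fancl*, with 20.46 and 21.59 FPKM in controls and 11.24 and 8.65 FPKM in HDAC3-deficient CD115-CDPs (log2 change -1.05, SE 0.338, limma adjusted p = 0.484).

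HDAC3-deficient library 2 carried the widest departures. *Rad51d* had 18.64 and 17.32 FPKM in controls, 17.74 FPKM in HDAC3-deficient library 1 and 2.51 FPKM in library 2. *Fanca* had 7.81 and 8.33 FPKM, then 10.55 and 0.67 FPKM, and *Xrcc2* 5.63 and 5.77 FPKM, then 7.32 and 1.24 FPKM. In library 2, *Rad51c* and *Lig4* were listed at 0, while *Rad51c* was at 3.59, 3.9 and 2.66 FPKM in the other 3 libraries. In *Rad51d*, *Fanca* and *Xrcc2* library 1 was at 0.987, 1.307 and 1.284 times the control mean, and library 2 was far below both controls. *Rad51c* and *Lig4* were below both controls in library 1 too, at 0.71 and 0.62 times the control mean. *Xrcc5* went the other way, with 4.67 and 3.23 FPKM in controls against 6.59 and 12.9 FPKM (log2 change 1.15, limma adjusted p = 0.565). Relative to the control mean, library 1 ranged from 0.535 to 1.67 times over the 35 genes and library 2 from 0 to 3.27 times. Without library 1, 3 members rose (*Fancc*, *Xrcc5* and *Xrcc6*) and 5 fell (*Rad51c*, *Rad51d*, *Xrcc2*, *Fanca* and *Fancl*), where 15.2% of 10564 genes tested rose and 32.6% fell. Without library 2, *Fancl* fell and 0 members rose, where 5.66% of 10586 genes tested rose and 8.46% fell. The members' shares without library 1 were thus no higher than those of all genes.

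**Figure D2:**
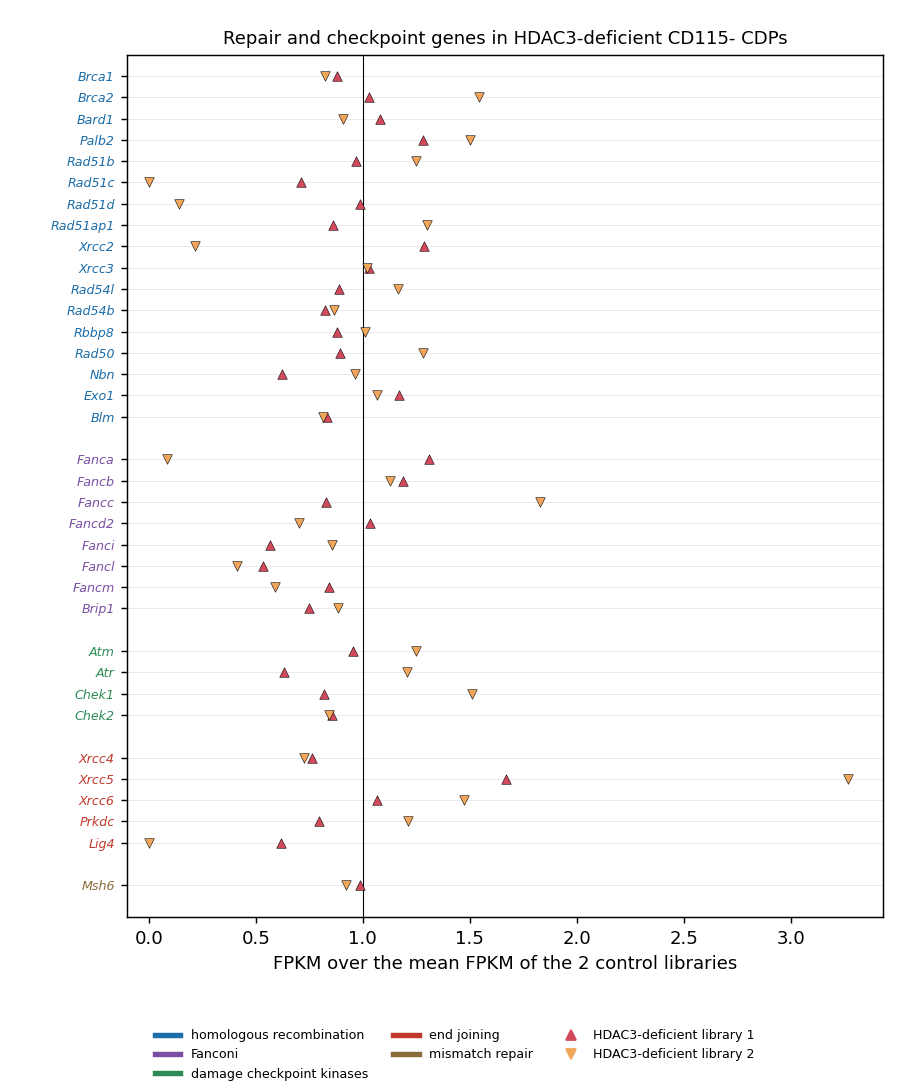
FPKM of each of the 35 genes in HDAC3-deficient CD115-CDP library 1 (upward triangles) and library 2 (downward triangles), divided by the mean of the 2 control libraries, with a line at 1. Library 1 stays between 0.535 and 1.67, whereas library 2 runs from 0 for *Rad51c* and *Lig4* to 3.27 for *Xrcc5*.

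The abundant members in CD115-CDPs showed no common direction. *Rad54l* had 38.37 and 54.01 FPKM in controls and 41.0 and 53.75 FPKM in HDAC3-deficient libraries, *Rad51ap1* 33.6 and 35.05 FPKM against 29.56 and 44.71 FPKM, and *Rad50* 22.8 and 29.22 FPKM against 23.25 and 33.36 FPKM. All 3 overlapped. *Brip1* had 14.22 and 20.35 FPKM against 12.95 and 15.31 FPKM, *Fancd2* 14.57 and 18.99 FPKM against 17.31 and 11.77 FPKM, and *Fanci* 16.09 and 18.94 FPKM against 9.96 and 14.98 FPKM. *Chek1* had 12.67 and 11.4 FPKM against 9.86 and 18.19 FPKM, and *Chek2* 11.88 and 14.65 FPKM against 11.38 and 11.16 FPKM. *Xrcc6* had 153.56 and 132.29 FPKM against 152.05 and 210.15 FPKM, *Prkdc* 16.66 and 15.33 FPKM against 12.71 and 19.39 FPKM, *Xrcc4* 10.7 and 12.39 FPKM against 8.8 and 8.39 FPKM, and *Msh6* 43.08 and 51.48 FPKM against 46.74 and 43.63 FPKM. Of these end joining genes only *Xrcc4* had both HDAC3-deficient libraries below both controls. Of 77 further repair genes and 21 cell cycle genes, 0 were called by limma (1 and 0 rises, 5 and 0 falls at an unadjusted p under 0.05). The 7 granulocyte and monocyte markers summed to 1370 and 1218 FPKM in control CD115-CDPs against 2998 and 2309 FPKM, and the 8 pDC markers to 3046 and 2337 FPKM against 1203 and 625 FPKM, with 0 calls, and their part was not tested. The 5 early progenitor markers were above 0 in every library, with sums of 961 and 910 FPKM against 937 and 722 FPKM. Conventional DC markers summed to 437 and 372 FPKM against 352 and 239 FPKM, and T and NK cell markers to 49.3 and 66.8 FPKM against 282 and 402 FPKM. Most of the latter was *Nkg7*. B cell markers summed to 91.85 and 83.27 FPKM against 74.48 and 105.5 FPKM, and erythroid markers to 51.27 and 50.13 FPKM against 83.54 and 32.71 FPKM. No marker of these lists was called.

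**Figure D3:**
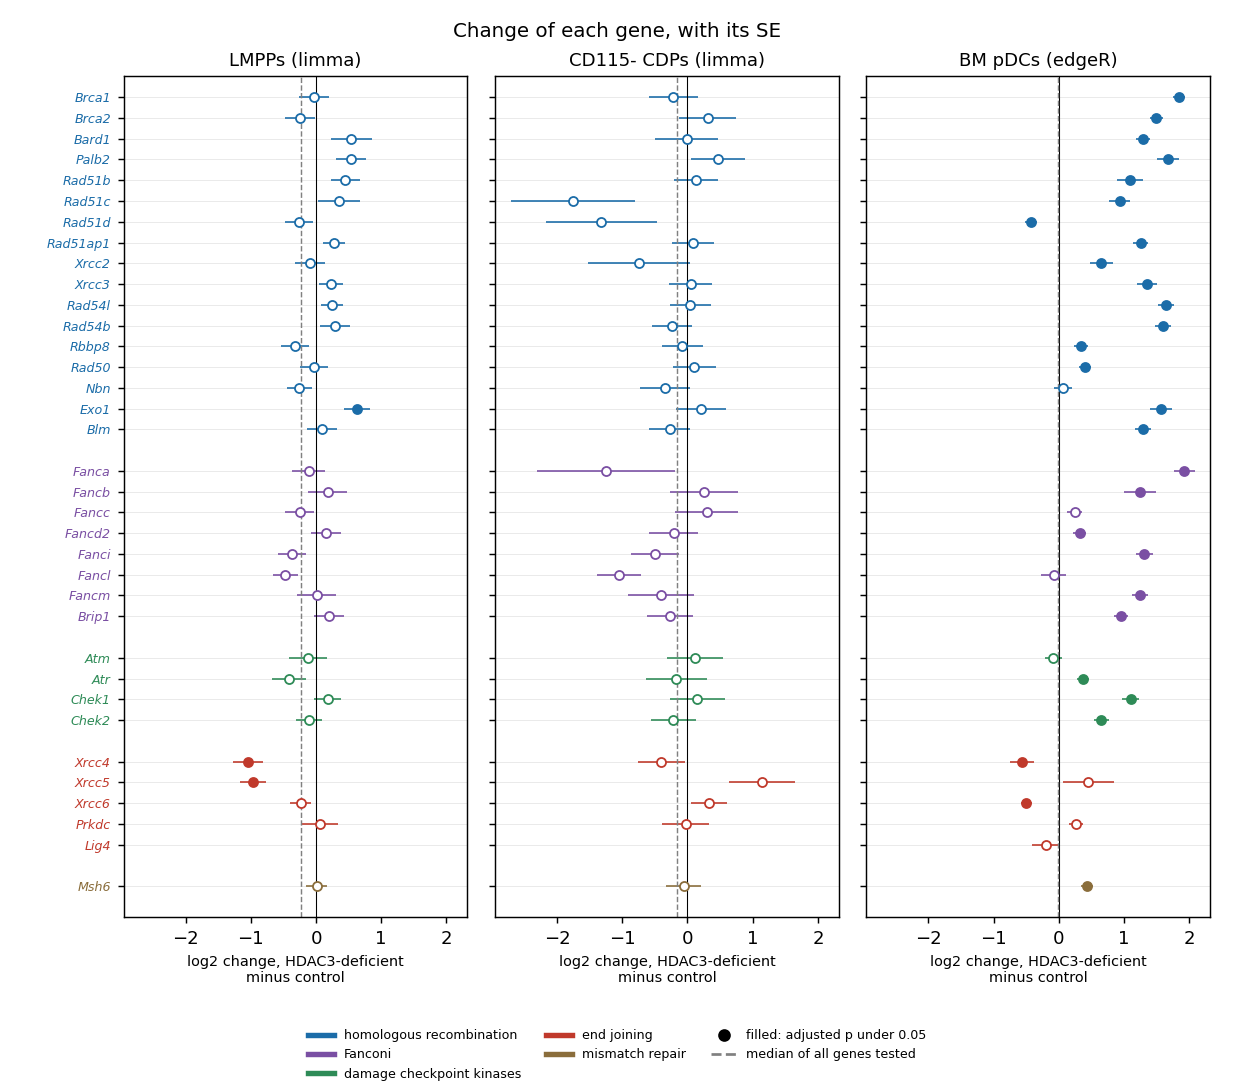
Log2 change (HDAC3-deficient minus control) with its SE for each gene in LMPPs, CD115-CDPs and BM pDCs on a shared axis, with filled points for an adjusted p under 0.05 and a dashed line at the median of all genes tested. In BM pDCs 25 genes are filled to the right of 0 and 3 to the left, whereas 3 are filled in LMPPs and 0 in CD115-CDPs, and *Lig4* has no point in the 2 progenitor panels.

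The end joining genes differed between the cell types in which members fell by call. *Xrcc4* was below both controls in both HDAC3-deficient libraries of all 3 cell types, with a call in LMPPs and BM pDCs. *Lig4*, at 1.2 FPKM or less in every library, was also below both controls in all 3. It had no call in BM pDCs and was not tested in the progenitors. Over all genes tested, 5368 of 11146 lay below both controls in LMPPs, 28.4% in CD115-CDPs and 48.9% in BM pDCs. The share of all genes below both controls in all 3 cell types was not counted. *Xrcc5* fell in LMPPs and was higher in both HDAC3-deficient CD115-CDP libraries without a call, and its control level was 24.14 to 29.94 FPKM in LMPPs and 0.42 to 0.71 FPKM in BM pDCs. *Xrcc6* fell in BM pDCs only by call, and it also lay below both controls in LMPPs. Tables of the 3 cell types were normalised separately, so these levels were set side by side and no difference between cell types was tested.

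**Figure D4:**
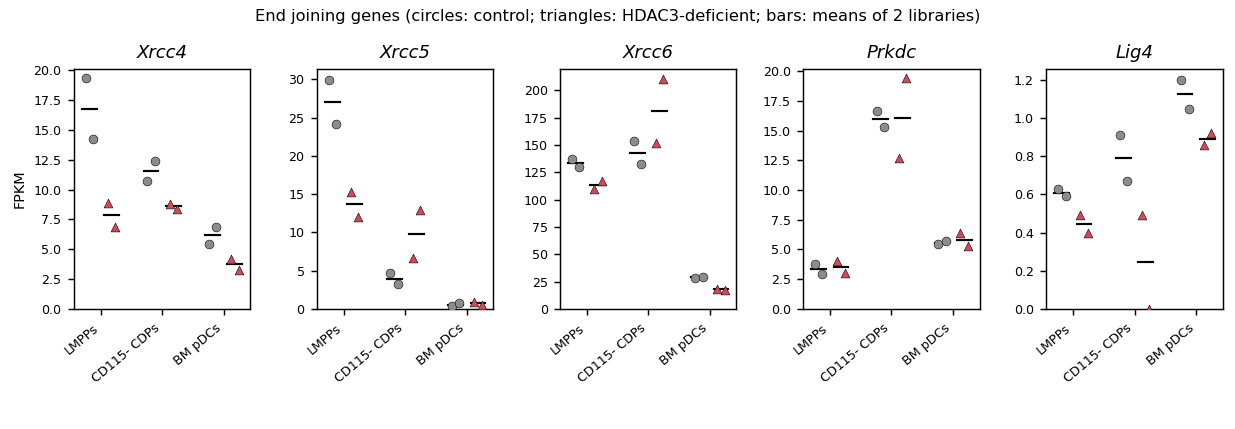
FPKM of the 5 end joining genes in each library of LMPPs, CD115-CDPs and BM pDCs, with circles for control, triangles for HDAC3-deficient and bars for the mean of 2 libraries; each panel has its own axis from 0. *Xrcc4* and *Lig4* triangles lie below their circles in all 3 cell types. *Xrcc5* circles run from 24.14 and 29.94 FPKM in LMPPs to under 1 FPKM in BM pDCs.

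Levels of most of the 35 genes were lower in control BM pDCs than in the control progenitors. The control mean was lower in BM pDCs than in both LMPPs and CD115-CDPs for 29 of 35 genes, and the 6 others were *Bard1*, *Rad51c*, *Atm*, *Atr*, *Prkdc* and *Lig4*. The median FPKM of the recombination genes was 13.07 and 10.84 in control LMPPs, 15.29 and 17.32 in control CD115-CDPs and 2.62 and 2.8 in control BM pDCs. In HDAC3-deficient BM pDCs it was 6.92 and 6.72. Of the 25 genes that rose in BM pDCs, 19 still had a mean below both control progenitor means. The tables were normalised separately, so these are levels set side by side with no test. The counts were not set beside the share of all genes with the same pattern. FPKM over all rows summed to 474583 and 481792 in control BM pDCs and to 553030 to 622839 in the control progenitors. Lysis also differed, with a buffer for few cells for the progenitors and Trizol for pDCs, so its part and that of cell type cannot be told apart.

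Promoters of the genes were searched for the letters of an E2F site. In BM pDCs 15 of 17 recombination genes and all 21 cell cycle genes had risen. In LMPPs 1 and 8 of them had risen, and in CD115-CDPs 0 and 0. Of all genes tested, 21.6% rose in BM pDCs and 4.31% in LMPPs, and 0.0% were called in CD115-CDPs. E2F factors drive transcription for DNA synthesis, and their part in these rises was not tested. RefSeq promoters of GRCm38.p6 were available for 26 of the 35 genes, and the 250 bases before each start were read on the gene's strand. The 8-base words TTTCCCGC, TTTCGCGC, TTTGCCGC and TTTGGCGC were searched on both strands, where words of opposite strands can overlap and a gene counts once. They were found in 4 of 26 genes (15.4%), *Brca2*, *Bard1*, *Chek2* and *Xrcc6*, and in 2.16% of all 27025 genes with a promoter. That last share was taken over every gene with a promoter, expressed in these cells or not. Of the 4 genes with a word, 3 rose and 1, *Xrcc6*, fell in BM pDCs, and 3 of 19 risen genes with a promoter held a word. CCAAT, searched on both strands, was in 57.7% of the 26 genes and 37.5% of all genes, and TTTGAA or TTCGAA in 7.69% and 19.6%. No word shown overlaps a CCAAT or TTTGAA match. The 4 promoters are shown as the risers and the faller that share the letters, each as 250 bases before its start, with the word in capitals. The windows are chr5:150522371-150522620 (+) for *Brca2*, chr1:71102973-71103222 (-) for *Bard1*, chr5:110839733-110839982 (+) for *Chek2* and chr15:82016119-82016368 (+) for *Xrcc6*, all GRCm38.p6, and the first base of the word lies at -168, -209, -152 and -46, counted in bases from the start.
Brca2: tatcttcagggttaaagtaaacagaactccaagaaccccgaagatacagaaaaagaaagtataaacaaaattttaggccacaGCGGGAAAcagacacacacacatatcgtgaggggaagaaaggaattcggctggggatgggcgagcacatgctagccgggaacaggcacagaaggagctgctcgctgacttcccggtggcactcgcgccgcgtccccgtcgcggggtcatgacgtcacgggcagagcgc
Bard1: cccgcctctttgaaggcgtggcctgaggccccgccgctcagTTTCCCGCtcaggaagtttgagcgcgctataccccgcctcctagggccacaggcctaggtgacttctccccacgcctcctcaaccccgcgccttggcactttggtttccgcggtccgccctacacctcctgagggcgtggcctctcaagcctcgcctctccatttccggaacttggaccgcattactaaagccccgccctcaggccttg
Chek2: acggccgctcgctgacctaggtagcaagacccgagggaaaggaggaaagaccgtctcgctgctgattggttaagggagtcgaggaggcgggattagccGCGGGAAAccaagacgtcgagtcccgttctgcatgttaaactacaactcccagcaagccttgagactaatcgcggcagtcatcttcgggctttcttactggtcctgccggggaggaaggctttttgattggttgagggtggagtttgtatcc
Xrcc6: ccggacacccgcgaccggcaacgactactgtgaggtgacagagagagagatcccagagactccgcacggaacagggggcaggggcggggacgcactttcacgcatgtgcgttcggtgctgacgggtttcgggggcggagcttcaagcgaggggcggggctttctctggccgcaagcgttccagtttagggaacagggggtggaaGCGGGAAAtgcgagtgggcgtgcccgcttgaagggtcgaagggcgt
A match is a description of letters and no measurement of binding, and the same word GCGGGAAA stands in a gene that rose, *Brca2*, and in one that fell, *Xrcc6*.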

How the data were processed

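RNA-seq was read from LMPPs, CD115-CDPs and BM pDCs, 2 libraries per genotype, with genotypes taken from the labels. Bowtie2, RSEM and the build mm10 are named in the submitters' processing notes, without versions. Labels name lysis in a buffer for few cells for the progenitors and Trizol for pDCs. The authors deposited FPKM per gene and library for each cell type, and for BM pDCs also an expected count and TPM, the latter not used. Members and lists were chosen with earlier results of these data known; all 35 were accounted for.

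LMPP and CD115-CDP values were tested as log2(FPKM + 0.5) with limma 3.58.1 (trend) for genes of at least 1 FPKM in at least 2 libraries, a scale that understates the change of low genes. BM pDC expected counts were rounded and tested with edgeR 4.0.16 (filterByExpr, TMM, quasi-likelihood). That test gives no SE, so the SE shown for BM pDCs is the absolute log2 change divided by the square root of its F statistic. P values are two-sided and were adjusted over all genes by the Benjamini-Hochberg method in R 4.3.3. Depth is known for BM pDCs only, as the expected counts. Pseudocounts, filters, scalings, DESeq2 1.42.0, a replicate block and leaving out each library were tried. The scripts were tested on simulated data with planted log2 changes of 2 for the progenitors and 1 for BM pDCs. Recovery of smaller changes was not tested. The named genes are all called members, the most abundant uncalled members of each role, and up to 4 genes per other list with the smallest p. Tables were read with pandas 2.3.3 in Python 3.11.15 and drawn with matplotlib 3.10.9.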

Additional observations from a re-analysis of the deposited data

Results flagged for a closer look

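In 10 genes both HDAC3-deficient libraries lay on one side of both controls in one cell type and on the opposite side in another. They are 29.4% of the 34 members tested in every cell type, beside 26.1% (2550) of all 9771 genes tested in every cell type. These shares are close, so the pattern was not particular to the members. Of the progenitor values below, only that of *Xrcc5* in LMPPs was called, and *Fancc* had no call in BM pDCs. The difference between cell types was not tested, the tables were normalised separately, and values are the ratio of mean FPKM, HDAC3-deficient over control.

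*Brca1* was at 3.1 in BM pDCs and 0.852 in CD115-CDPs. *Brca2* was at 2.58 in BM pDCs and 1.29 in CD115-CDPs, but 0.837 in LMPPs. *Rad51c* was at 1.73 in BM pDCs and 1.41 in LMPPs, but 0.355 in CD115-CDPs, where library 2 lists it at 0. *Rad54b* was at 2.77 in BM pDCs and 0.844 in CD115-CDPs, and *Blm* at 2.22 and 0.823. *Fanci* was at 2.26 in BM pDCs, 0.773 in LMPPs and 0.712 in CD115-CDPs. *Fancc* was at 1.07 in BM pDCs and 0.832 in LMPPs, and *Atr* at 1.15 and 0.72. *Chek2* was at 1.4 in BM pDCs and 0.85 in CD115-CDPs. *Xrcc5* was at 2.47 in CD115-CDPs and 0.505 in LMPPs.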

How the results depend on the processing

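The count of members risen in BM pDCs stayed within 1.5 times of 25 under every alternative, from 18 to 26 when 1 library was left out, and the count fallen, 3, went from 1 to 4. In LMPPs the 1 rise became 0 without the filter and without the trend, 3 with the median ratio scaling, 4 with quantile normalization and 0 to 1 when 1 library was left out. The 2 falls became 0 without the filter, and 1 to 2 when 1 library was left out. In CD115-CDPs the 0 rises and 0 falls became 0 to 3 and 0 to 5. The cause of these changes was not tested.

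With the replicate number as a replicate block, 27 of the 28 members called in BM pDCs kept the call (*Rbbp8* lost it, adjusted p = 0.0633 by edgeR), the 3 in LMPPs kept it and 0 were called in CD115-CDPs (102 rises and 291 falls over all genes). Nothing in the labels ties equal numbers together, and the correlation of deviations was -0.10, 0.24 and -0.23 in LMPPs, CD115-CDPs and BM pDCs. Without the filter, *Exo1* in LMPPs had an adjusted p of 0.0924, *Xrcc4* of 0.0698 and *Xrcc5* of 0.0608 by limma. With 2 libraries per genotype and unknown depth for the progenitors, small changes there could not be resolved.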

Other observations

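Of the other genes of these pathways, 4 are given here that were chosen after their values were seen; *Poll* and *Dna2* changed more than any of the 35 genes in BM pDCs. *Poll*, a polymerase that fills gaps in end joining, had 0.51 and 0.26 FPKM in controls and 5.46 and 7.12 FPKM in HDAC3-deficient BM pDCs (log2 change 4.15, SE 0.299, edgeR adjusted p = 8.63e-05). *Polm*, its relative, had 7.59 and 7.0 FPKM against 3.64 and 2.91 FPKM, and fell by 1.01 on the log2 scale. *Dclre1c*, which encodes the nuclease Artemis, had 63.6 and 60.86 FPKM against 34.55 and 34.7 FPKM and fell by 0.69. *Dna2*, a nuclease of resection, had 2.23 and 1.72 FPKM against 9.02 and 11.39 FPKM (log2 change 2.51). In LMPPs *Poll* had 16.28 and 25.08 FPKM against 20.41 and 21.52 FPKM, with no call. Its control values in BM pDCs were under 1 FPKM. The 4 genes were not checked for exon bases shared with other genes.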
